A study of Rattus norvegicus with 20 samples.

Results

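The 5 kidneys of vehicle-treated rats, out of the 20 kidneys of the series, were described for their microRNA (miRNA) content. They were chosen by label as the control kidneys of day 6, without reference to any measured value. The rats were male Wistar rats of 80 to 100 g that received PEG400, a polyethylene glycol, mixed 1:1 with water. The vehicle followed the schedule of the treated animals, which were injected intraperitoneally over 6 days, and these kidneys were collected on day 6. The other 15 kidneys came from rats given aristolochic acid I at 40 mg/kg and collected on day 2, 4 or 6, and are not used here. The labels do not say whether the 5 kidneys came from 5 different rats. The spread between kidneys given here may therefore hold technical as well as animal variation. Total RNA was labelled with the dye Cy3, and each kidney was hybridised to 1 array (n = 5, kidneys 1 to 5). Kidneys 1 to 4 shared a slide, and kidney 5 was on another slide. All values come from whole kidney, so fewer cells of a type and less RNA per cell cannot be told apart.

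A miRNA is cut from a hairpin precursor whose 5′ and 3′ sides give the 5p and the 3p arm. One arm or both are loaded into an Argonaute protein, and the bases near the 5′ end, the seed, pair with target messenger RNAs, so miRNAs of one seed form a family with overlapping targets. In the kidney, miR-192 and miR-194 are known from tubular epithelium, the miR-200 family from epithelial cells that keep their junctions, miR-126 from endothelium, and miR-143 and miR-145 from smooth muscle. The miR-30 family is known for its part in podocyte and tubule maintenance, and the let-7 family rises as cells differentiate.

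The sequences below are the miRNAs on which the order of abundance and the family shares turned. Each is the RefSeq mature sequence (GRCr8 build), 5′ to 3′, with the seed, bases 2 to 8, in capitals. A RefSeq sequence was matched by name for 641 of the 719 miRNAs on the array, among them 214 of the 241 detected in all 5 kidneys. The let-7 family, of which all 8 members on the array were detected, is shown first.
let-7a-5p: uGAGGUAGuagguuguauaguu
let-7c-5p: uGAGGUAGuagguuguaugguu
let-7f-5p: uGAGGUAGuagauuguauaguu
let-7b-5p: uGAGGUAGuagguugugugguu
let-7d-5p: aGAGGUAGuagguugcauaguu
let-7i-5p: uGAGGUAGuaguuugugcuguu
let-7e-5p: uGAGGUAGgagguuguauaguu
miR-98-5p: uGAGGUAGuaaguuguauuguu
Positions count from 1 at the 5′ end of let-7a, whose base is written first. let-7c differed from let-7a by A19G, let-7f by G12A and let-7e by U9G. let-7b differed by A17G and A19G, let-7d by U1A and U16C, miR-98 by G11A and A19U, and let-7i by G12U, A17G, U18C and A19U. Members that differ by 1 base were read by different probes, but how far these probes separate them was not tested. The other families among the 5 brightest are shown with the members that had a sequence. They are followed by the brightest miRNAs that stood alone in their family as grouped by bases 2 to 8.
miR-26a-5p: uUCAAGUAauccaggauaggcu
miR-26b-5p: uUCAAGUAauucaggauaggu
miR-30a-5p: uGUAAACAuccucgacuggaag
miR-30c-5p: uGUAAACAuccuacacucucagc
miR-30e-5p: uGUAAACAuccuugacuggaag
miR-23b-3p: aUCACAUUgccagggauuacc
miR-23a-3p: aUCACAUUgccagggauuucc
miR-29a-3p: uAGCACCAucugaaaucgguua
miR-29b-3p: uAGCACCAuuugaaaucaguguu
miR-29c-3p: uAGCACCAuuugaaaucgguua
miR-10a-5p: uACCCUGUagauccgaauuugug
miR-21-5p: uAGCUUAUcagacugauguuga
miR-126a-3p: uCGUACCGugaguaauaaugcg
miR-22-3p: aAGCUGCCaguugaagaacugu
Within the pairs, miR-23a differed from miR-23b by A19U, and miR-29c from miR-29a by C10U, counted from the 5′ end of the miRNA named second. miR-30b-5p and miR-30d-5p also belong to the miR-30 family.

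Of the 719 rat miRNAs on the array, 241 (33.5%) were detected in all 5 kidneys and 429 (59.7%) in none. Detection is the flag that the scanning software gave each miRNA. The remaining miRNAs were detected in 1 to 4 kidneys, 14 of them in 1 kidney only. Where every probe of a miRNA had to be well above background, 159 were detected in all 5. Kidneys 1 to 5 had 269, 258, 267, 264 and 265 detected miRNAs. Their summed detected signal, in arbitrary fluorescence units, was 125938, 144585, 200009, 154306 and 156768, highest in kidney 3 and lowest in kidney 1. No spot was saturated (0 on each array). Of the 241 miRNAs, 108 carried a 3p name, 28 no arm in the name and the others a 5p name. Levels below are shares, the percent of the summed detected signal of a kidney that a miRNA held. Signal depends on probe and labelling as well as on the number of molecules, so the order given is one of signal.

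The signal of the vehicle kidney was concentrated in few miRNAs. miR-26a-5p, a miRNA expressed in most differentiated tissues, was the brightest, with 6.61, 6.23, 6.70, 6.51 and 6.76% in kidneys 1 to 5 (mean 6.56% ± 0.21, SD, n = 5). It ranked first in each of the 5 kidneys, and its lowest kidney was above the highest kidney of the next miRNA. That was let-7a-5p, with 5.76, 5.65, 5.53, 5.35 and 5.90% (5.64% ± 0.21), which ranked second in each kidney. let-7c-5p (5.36% ± 0.12) and let-7f-5p (5.27% ± 0.20) followed. Their kidneys overlapped, let-7c was brighter in 4 of 5 kidneys, and the mean difference of 0.0913 percentage points was smaller than its SD of 0.127. let-7b-5p ranked 5 in every kidney, with 4.40, 4.63, 4.69, 4.26 and 4.55% (4.51% ± 0.18). Below it the shares dropped by 1.71 percentage points to the next miRNA, with no overlap between kidneys.

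The following 6 miRNAs lay close together, between 2.80% and 2.46%. They were miR-30a-5p (2.80% ± 0.059), miR-30c-5p (2.79% ± 0.066), miR-10a-5p from the HoxB locus (2.68% ± 0.19), miR-23b-3p (2.61% ± 0.12), miR-16-5p, a repressor of cell cycle genes (2.51% ± 0.26), and miR-21-5p, known for its rise in injured and fibrotic kidney (2.46% ± 0.17). Each of these 6 overlapped its neighbour in the order, so the order of neighbours was not resolved by 5 kidneys. miR-30a-5p and miR-30c-5p were each above miR-21-5p in every kidney, with no overlap. miR-10a-5p ranked between 6 and 11 and miR-16-5p between 7 and 12. miR-21-5p had 2.66, 2.49, 2.34, 2.24 and 2.57%, with every kidney above the highest kidney of miR-126a-3p.

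The endothelial miR-126a-3p had 2.16, 2.16, 1.98, 1.95 and 2.02% (2.06% ± 0.10). The rest of the 20 brightest were miR-22-3p, miR-26b-5p, miR-23a-3p, miR-29a-3p, let-7d-5p, miR-24-3p, miR-494-3p and miR-27b-3p, with mean shares from 1.93% down to 1.504%. miR-24-3p ranked between 17 and 20 and miR-29a-3p between 10 and 21. miR-494-3p moved most in rank among the 20. It ranked 40, 28, 13, 6 and 33 in kidneys 1 to 5.

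The 5 brightest miRNAs together held 27.3% ± 0.67, the 10 brightest 40.7% ± 0.91, the 20 brightest 59.5% ± 0.64 and the 50 brightest 86.6% ± 0.49 of the signal. By kidney the 10 brightest held 41.2, 40.6, 40.7, 39.3 and 41.8%. It took 15 miRNAs to reach 50% of the signal and 63 to reach 90%. At least 1% each was held by 33 miRNAs, and 144 of the 241 held less than 0.1% each. Without kidney 5, the only one on its slide, the 10 brightest held 40.5%.

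**Figure D1:**
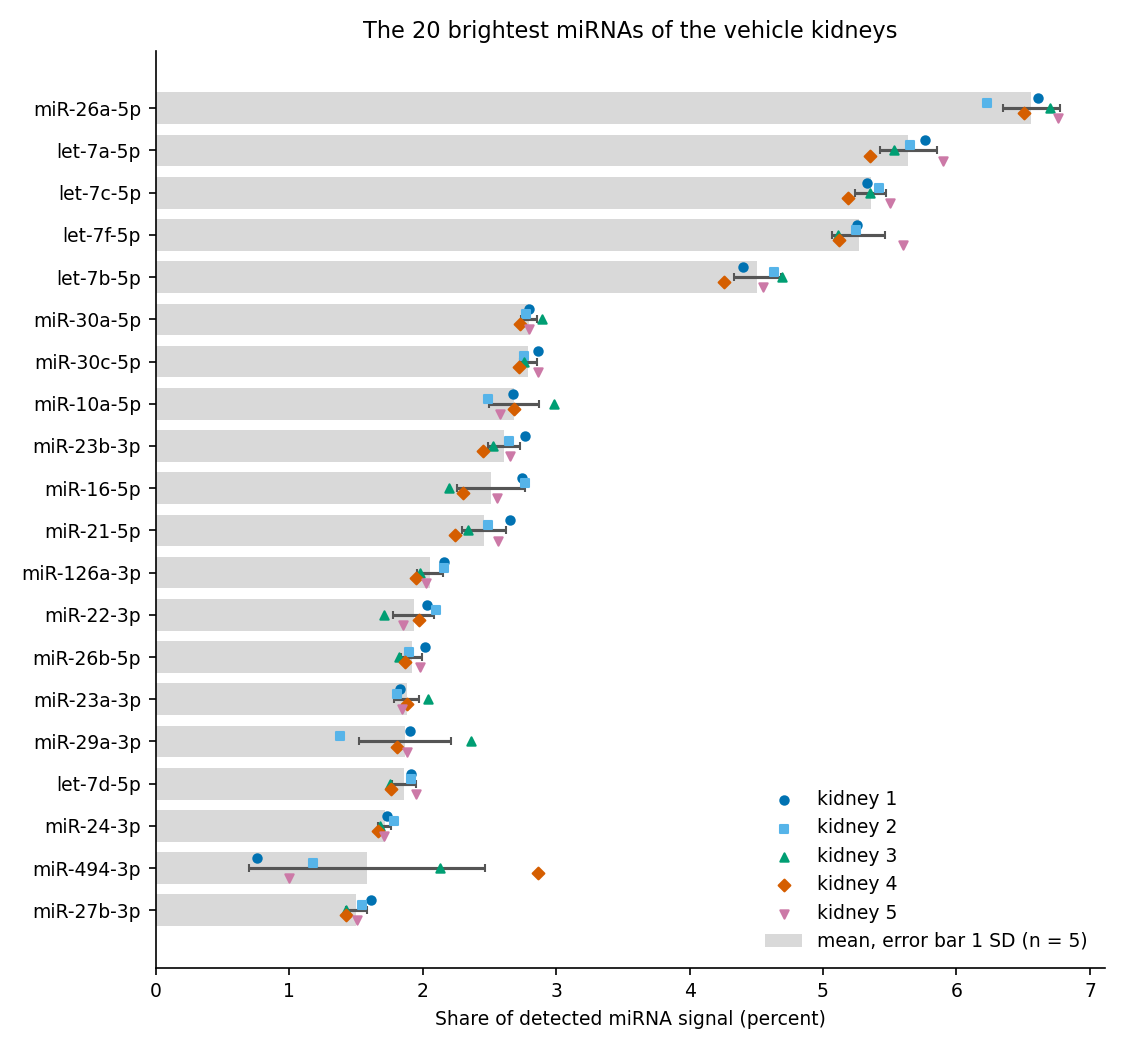
Share of the detected miRNA signal (x axis, percent) of the 20 brightest miRNAs (y axis, by falling mean), with grey bars for the mean, error bars of 1 SD (n = 5) and 1 point for each vehicle kidney. miR-26a-5p and let-7a, let-7c, let-7f and let-7b stand above 4%, the points of most other miRNAs lie close to their mean, and miR-494-3p runs from 0.758% in kidney 1 to 2.86% in kidney 4.

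Grouped by seed, the 241 miRNAs formed 190 families, of which 27 had 2 or more detected members. Families used the RefSeq sequences, and 10 miRNAs without one were placed by name. Any other miRNA without a sequence, such as miR-151-5p, counted as a family of its own, so the 190 include ungrouped miRNAs. The let-7 family held 24.5, 24.7, 24.3, 23.4 and 25.4% of the signal (24.4% ± 0.72), the largest share of any family in every kidney. Its members were unequal. let-7a, let-7c, let-7f and let-7b were among the 5 brightest miRNAs, and let-7d held 1.86% ± 0.093, let-7i 0.846% ± 0.042 and let-7e 0.790% ± 0.029. let-7a alone made up 23.1% of the family.

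The miR-26 family (miR-26a and miR-26b) held 8.48% ± 0.24 and the miR-30 family 8.47% ± 0.12, with miR-26a making up 77.4% of the former and miR-30a 33.0% of the latter. By kidney the miR-30 family held 8.48, 8.48, 8.53, 8.28 and 8.59%, a narrow range. Its members were miR-30a, miR-30c, miR-30b (1.24% ± 0.030), miR-30e (1.12% ± 0.047) and miR-30d (0.519% ± 0.016). miR-384-5p, which has the same seed, was detected in no kidney. The miR-23 family held 4.49% ± 0.10, split between miR-23b (2.61%) and miR-23a (1.88%).

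The miR-29 family, whose known targets include collagens and other matrix genes, varied most among the 10 brightest families, with an SD of 13.4% of its mean. It held 4.52, 3.62, 5.25, 4.21 and 4.56% (4.43% ± 0.59), lowest in kidney 2 and highest in kidney 3. miR-29a (1.91, 1.38, 2.36, 1.81 and 1.88%) and miR-29b (1.17, 0.967, 1.42, 1.12 and 1.28%) were both lowest in kidney 2 and highest in kidney 3. miR-29c was steadier, with 1.44, 1.27, 1.47, 1.29 and 1.40%, and was also lowest in kidney 2 and highest in kidney 3.

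The families in places 6 to 10 were the miR-15/16 family (3.52% ± 0.32, 5 members, lowest in kidney 3 with 3.14%), miR-10a (2.68%), miR-27 (2.52% ± 0.054), miR-21 (2.46%) and the part of the miR-200 family with the seed of miR-200b, miR-200c and miR-429 (2.16% ± 0.023). miR-10b-5p (1.36% ± 0.064) counted apart from miR-10a, because its RefSeq sequence, cCCUGUAGaaccgaauuugugu, has other letters at bases 2 to 8. The 2 sequences are nearly the same when shifted, because the annotated 5′ end of miR-10b lies later. The split thus rests on that annotation, and so do the places of the families around miR-10a. A joined miR-10 family was not ranked. The 5 brightest families, with 20 miRNAs, held 50.3% ± 1.30 of the signal, the 10 brightest 63.7% ± 1.52 and the 20 brightest, with 45 miRNAs, 80.2% ± 0.65. Without kidney 5 the let-7 family held 24.2% and the 5 brightest families 49.96%.

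**Figure D2:**
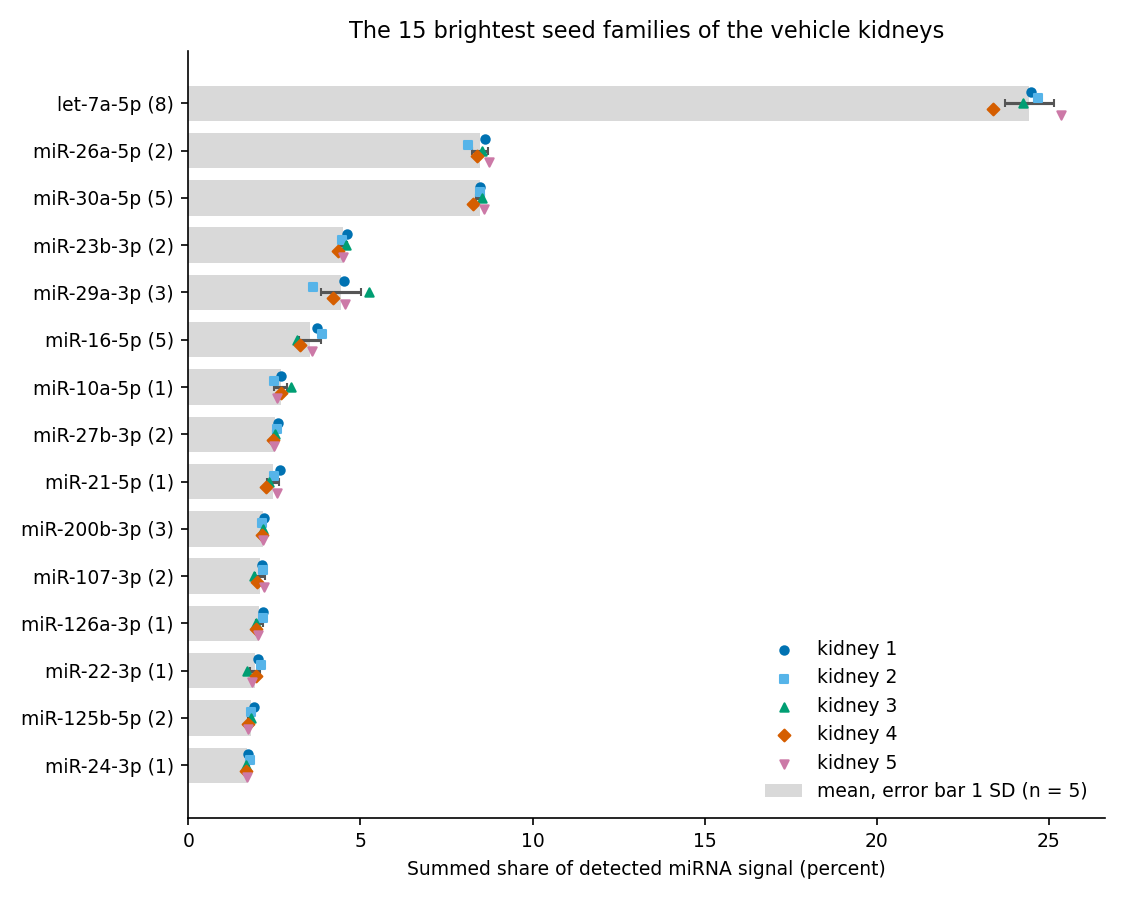
Summed share of the detected miRNA signal (x axis, percent) of the 15 brightest seed families (y axis, named by their brightest member, with the number of members detected in all 5 kidneys in brackets). Grey bars are means, error bars 1 SD (n = 5) and points the vehicle kidneys. The let-7 family stands at 24.4%, the miR-26 and miR-30 families near 8.5%, and the points of the miR-29 family spread from 3.62% to 5.25%.

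Arm usage was read from 262 pairs of arms on the array whose names were the same apart from the 5p or 3p ending. Arms with a locus number in only 1 of the names were not paired. let-7a-5p, miR-30c-5p and miR-24-3p, whose other arms include let-7a-1-3p, miR-30c-1-3p and miR-24-2-5p, were therefore left out, although bright. Each arm has its own probes, so an arm share compares different probe sets. In 37 pairs both arms were detected in all 5 kidneys. In 41 pairs the 5p arm was detected in all 5 and the 3p arm in none, and in 53 pairs the reverse. Neither arm was detected in 95 pairs, and 36 pairs had another combination. Among the 37 pairs with both arms, the 5p arm was the brighter in 25 and the 3p arm in 12, and the brighter arm was the same in all 5 kidneys in 33. One arm held at least 90% of the signal in 13 of the 37, and in 12 both arms held between 25% and 75%. The 13 of 37 became 26 of 55 pairs where arms detected in at least 1 kidney were used, and 6 of 37 with the scanning software's own total gene signal.

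Of the 10 pairs matched by name with the highest summed signal, those of miR-26a, miR-16, miR-23b, miR-21 and miR-26b did not have both arms in all 5 kidneys. miR-26a-3p, miR-16-3p and miR-23b-5p were detected in none. miR-21-3p was detected in 3 kidneys and miR-26b-3p in 2. The other 5 had both. The 5p arm held 99.5% ± 0.059 of the signal of let-7b, 92.9% ± 0.21 of miR-30a and 98.6% ± 0.14 of miR-10a. For miR-126a the 5p arm held 3.42, 3.53, 3.64, 3.80 and 3.67%, and for miR-22 it held 1.52, 1.51, 1.48, 1.43 and 1.59%, so the 3p arm carried nearly all of their signal in every kidney.

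Among the pairs matched by name, 28 had a 3p arm among the 100 brightest miRNAs that was the brighter, or the only one of the pair detected in all 5 kidneys. In 19 of them the 5p arm was detected in no kidney. They were miR-23b, miR-23a, miR-27b, miR-27a, miR-29a, miR-494, miR-130a, miR-107, miR-200a, miR-25, miR-101a, miR-101b, miR-500, miR-342, miR-203a, miR-365, miR-214, miR-223 and miR-212. For miR-143 the 5p arm was detected in 4 kidneys and for miR-193 in 3. In the other 7 both arms were measured in all kidneys. Beside miR-126a and miR-22, the 5p arm held 3.10% ± 0.22 in miR-29c, 2.70% ± 0.12 in miR-200b, 19.5% ± 0.70 in miR-324, 24.2% ± 0.41 in miR-199a and 37.9% ± 0.34 in miR-140.

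The 10 most balanced pairs were miR-339, miR-582, miR-328a, miR-542, miR-139, miR-652, miR-1839, miR-140, miR-532 and miR-9a. miR-339 was the most even, with 50.6, 48.4, 51.2, 47.9 and 50.2% of its signal on the 5p arm (49.6% ± 1.45). The brightest of the 10 was miR-652, in which the 5p arm held 60.6% ± 1.52, with 0.395% of all signal on the 5p and 0.256% on the 3p arm. miR-140 and miR-199a had nearly the same arm split in every kidney, with 37.4, 38.0, 38.1, 38.3 and 37.9% and 23.8, 23.9, 24.9, 24.2 and 24.3% on the 5p arm. Their arms, which carry different seeds, are shown for comparison.
miR-140-5p: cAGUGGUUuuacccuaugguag
miR-140-3p: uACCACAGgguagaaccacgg
miR-199a-5p: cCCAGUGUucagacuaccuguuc
miR-199a-3p: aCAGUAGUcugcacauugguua
The split was less steady for miR-328a, with 46.9, 60.2, 57.8, 64.7 and 44.7% on the 5p arm, and for miR-139, with 50.2, 41.8, 38.5, 32.0 and 45.6%. In miR-328a kidney 4 had the highest 5p share, and in miR-139 the lowest. The SD of the 5p share over kidneys had a median of 1.07 percentage points over the 37 pairs and was at most 8.70, in miR-328a.

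**Figure D3:**
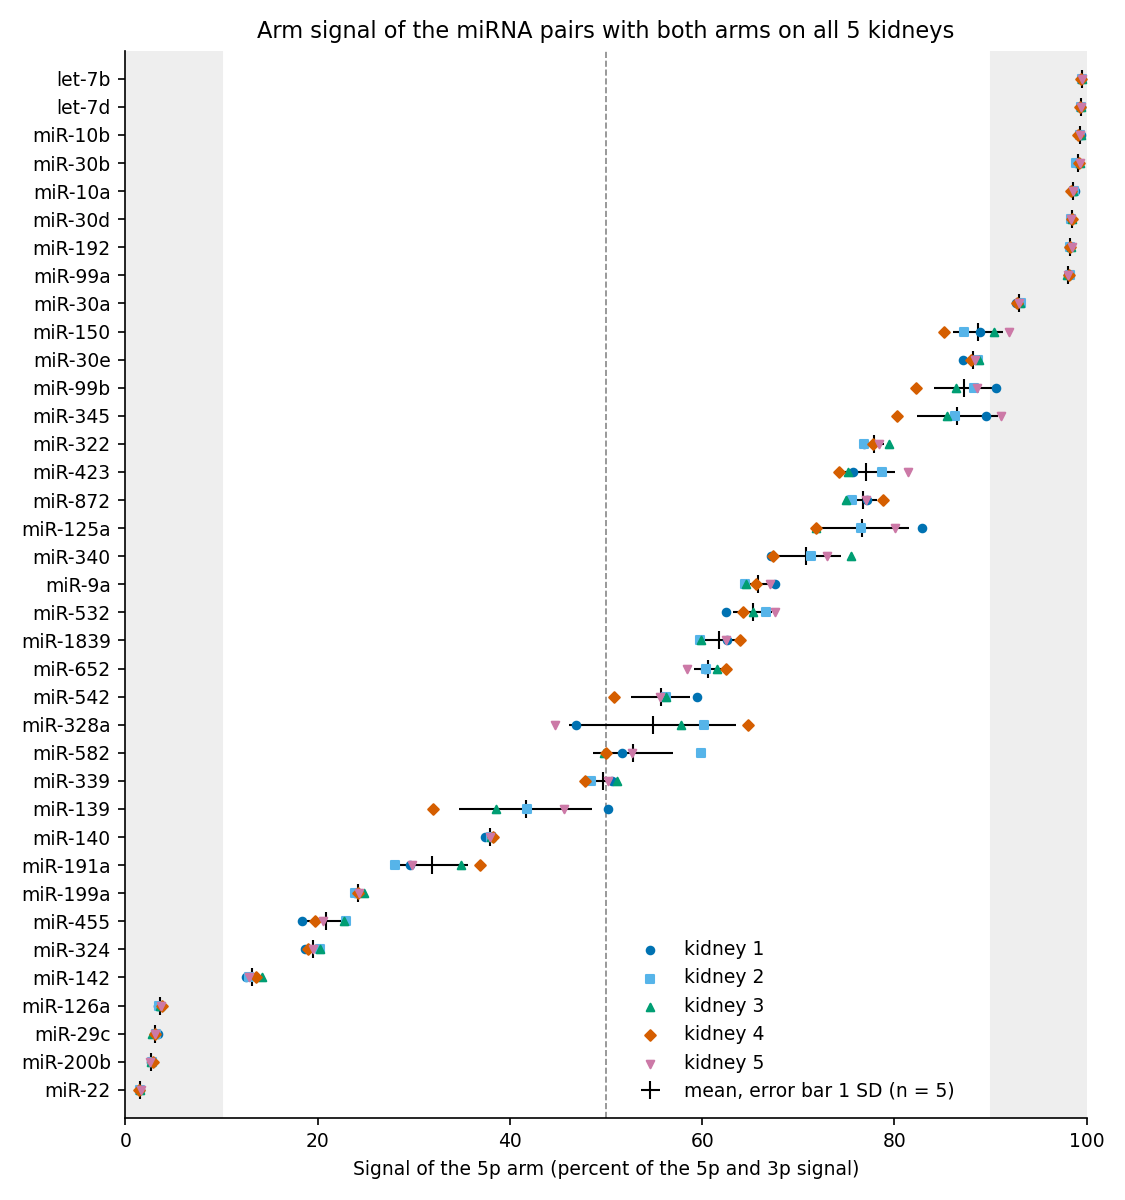
Signal of the 5p arm as a percent of the 5p and 3p signal (x axis) for the 37 pairs matched by name with both arms detected in all 5 kidneys (y axis), with points for the vehicle kidneys, a tick for the mean and error bars of 1 SD (n = 5). The shaded bands mark shares up to 10% and from 90%, which hold 4 and 9 pairs, and the points of miR-328a, miR-139 and miR-125a lie farthest apart.

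The labelled tissue was set against a list of 15 miRNAs taken as markers of kidney epithelium. The list was chosen with earlier results of these data known, so its counts do not test the label. Of 15, 13 were detected in all 5 kidneys, against 33.5% of all miRNAs on the array, and some lists of other tissues given below also passed that share. The 15 together held 15.6, 15.3, 15.3, 14.7 and 15.3% of the signal (15.2% ± 0.32). Most of that came from miR-10a, miR-10b and the miR-30 family. miR-192-5p, abundant in proximal tubule, had 1.497, 1.44, 1.08, 1.18 and 1.39% (1.32% ± 0.18), and miR-194-5p, from the same cluster, had 0.943, 0.929, 0.725, 0.775 and 0.881% (0.851% ± 0.096). Both were lowest in kidney 3 and next lowest in kidney 4. miR-215, which shares the seed of miR-192 and is listed as a marker beside it, was detected in no kidney. miR-204-5p was detected in all 5 at 0.0452% ± 0.0060, and its relative miR-211-5p in none. miR-196a-5p and miR-196b-5p, from Hox loci, held 0.208% ± 0.0096 and 0.228% ± 0.012, and miR-196c-5p 0.0683% ± 0.0058.

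All 5 members of the miR-200 family were detected in all kidneys, at 3.16, 3.06, 3.25, 3.14 and 3.14% together. miR-200b-3p (1.27% ± 0.024), miR-200a-3p (0.911% ± 0.042) and miR-429 (0.868% ± 0.028), which come from one cluster, made up most of it. miR-141-3p held 0.0581, 0.0688, 0.114, 0.0849 and 0.0669%, and miR-200c-3p, from the same locus, 0.0260% ± 0.0047, and both were highest in kidney 3.

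For markers of other cell types of the kidney, detection is again read against 33.5% of all miRNAs. The 2 arms of the endothelial miR-126a held 2.13% ± 0.10 together. The 5 stromal and smooth muscle miRNAs held 2.13% ± 0.084, with miR-143-3p at 1.20% ± 0.059, miR-199a-3p at 0.492% ± 0.025, miR-145-5p at 0.167% ± 0.0086, miR-199a-5p at 0.157% ± 0.0072 and miR-214-3p at 0.121% ± 0.013. All 6 leukocyte miRNAs on the array were detected in all kidneys and held 0.974% ± 0.058, led by miR-146a-5p (0.373% ± 0.038), the B and T cell miR-150-5p (0.209% ± 0.026) and miR-342-3p (0.172% ± 0.028). The granulocyte miR-223-3p held 0.120% ± 0.013, miR-142-3p 0.0868% ± 0.0078 and miR-142-5p 0.0132% ± 0.0011.

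The erythrocyte miR-451-5p varied more, with 0.258, 0.314, 0.0887, 0.174 and 0.160%, lowest in kidney 3. miR-144-3p, from the same locus, was detected in 3 kidneys (1, 2 and 4), and miR-144-5p in none. The part of blood left in the kidney was not tested.

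Of 22 markers of liver, muscle, brain, pancreas and sensory organs, 11 were detected in all 5 kidneys, 1 in some and 10 in none, against 33.5% of all miRNAs in all 5 and 59.7% in none. Their levels were low, and no list of these held more than 0.108% in any kidney. The liver miR-122-5p was detected in kidney 3 only. Of the 7 muscle miRNAs, miR-499-5p (0.0959% ± 0.0052) and miR-133b-3p (0.0110% ± 0.0015) were detected in all kidneys, and miR-1-3p, miR-133a-3p, miR-206-3p, miR-208a-3p and miR-208b-3p in none. The other arm of miR-1, miR-1-5p, is not on the list and was detected in all kidneys at 0.0236% ± 0.0037. Of the 7 brain miRNAs, miR-128-3p (0.0408% ± 0.0036), miR-9a-5p (0.0247% ± 0.0063), miR-9a-3p (0.0129% ± 0.0039) and miR-138-5p (0.0101% ± 0.0013) were detected in all kidneys, and miR-124-3p, miR-129-5p and miR-137-3p in none. The array entry miR-219-5p was not counted for the listed miR-219a-5p, and was detected in all kidneys at 0.0122% ± 0.0018. miR-375-3p, an islet miRNA, held 0.0203% ± 0.0045 and miR-7a-5p 0.0152% ± 0.00082, and the pancreatic miR-216a-5p and miR-217-5p were detected in none. The sensory organ cluster of miR-96-5p, miR-182 and miR-183-5p was detected in all 5 kidneys at 0.0617% ± 0.0065 together.

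Of the 10 X-linked testis and oocyte miRNAs, none was detected in all kidneys, 8 were detected in none, and miR-465-5p and miR-878 were detected in 1 kidney each. Of the 8 miRNAs of the embryonic stem cell cluster, miR-290 was detected in all kidneys, with 0.108, 0.101, 0.0711, 0.0860 and 0.0898%, and the other 7 in none.

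In position, many bright miRNAs lay in clusters, taken as loci on one strand at most 10 kb apart in the rn4 rat build that the array files use. The miR-200b, miR-200a and miR-429 cluster, at chr5:172897242-172899076 on the minus strand, held 3.08% ± 0.052, with no member placed elsewhere. The miR-23b, miR-27b and miR-24 cluster, at chr17:7350980-7351765, and the miR-23a, miR-27a and miR-24 cluster, at chr19:25638459-25638809, both on the minus strand, share the sequence of miR-24-3p. Their signal therefore cannot be divided between the 2 loci. The same holds for let-7a, which the files place at chr17:22119781-22119800 and at chr8:44525787-44525806. miR-26a-5p was placed at chr8:123981641-123981656, on the plus strand.

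Most miRNAs differed little between the 5 kidneys. For the spread, the level of a miRNA was the log2 of its signal over the 75th percentile of the 241 miRNAs in that kidney. The SD of this level over 5 kidneys had a median of 0.124, which goes with a median ratio of 1.24 between the highest and the lowest kidney. It was under 0.1 for 96 miRNAs and over 0.5 for 18. Without scaling between arrays the median SD was 0.229. The median SD was 0.176 in the 61 dimmest and 0.086 in the 60 brightest miRNAs. Over the 241 miRNAs the Pearson correlation between 2 kidneys was 0.983 to 0.996, across miRNAs that share array and labelling.

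The 10 least variable miRNAs were miR-126a-3p, miR-100-5p, miR-345-5p, miR-148b-3p, miR-27b-3p, miR-99b-5p, miR-196b-5p, miR-25-3p, miR-196a-5p and miR-23b-3p, with SDs up to 0.032. miR-126a-3p varied least, with a highest kidney 1.01 times the lowest. Its 2 probes had SDs of 0.033 and 0.011, so each probe varied more than their sum. The low spread of miR-126a-3p depended on the setting, since its SD was 0.10 with the deposited table, 0.16 with scaling to the median and 0.20 without scaling between arrays. miR-99b-5p, miR-196b-5p, miR-25-3p and miR-196a-5p lay next to the 75th percentile itself, to which each array was scaled, so a small spread is built into their levels.

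The 10 most variable miRNAs were miR-3546, miR-6315, miR-494-3p, miR-327, miR-3473, miR-370-3p, miR-6215, miR-31a-5p, miR-1224 and miR-451-5p, with SDs from 0.65 to 1.04. Of these, 7 were highest in kidney 4 and 7 were lowest in kidney 1, against 82 and 93 of all 241. miR-494-3p, miR-1224 and miR-3473 were bright as well as variable. miR-494-3p held 0.758, 1.18, 2.13, 2.86 and 0.999% of the signal, miR-1224 held 0.812, 1.13, 1.65, 2.33 and 1.09%, and miR-3473 held 0.305, 0.631, 0.584, 0.978 and 0.322%. Each was highest in kidney 4 and lowest in kidney 1. On the log2 scale miR-494-3p had an SD of 0.85 and a highest kidney 4.23 times the lowest, against 0.10 for miR-26a-5p.

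The sequences of these 3 and of the dimmer miR-6215, also highest in kidney 4, are shown because their differences between kidneys were large. The seeds, in capitals, all differ.
miR-494-3p: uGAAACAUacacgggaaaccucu
miR-1224: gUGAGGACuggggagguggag
miR-3473: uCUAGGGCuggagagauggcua
miR-6215: uUUAGGGUugcagagccagg

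In miR-494-3p the brighter probe gave 89.3% of the signal, and both probes were highest in kidney 4 and lowest in kidney 1, with SDs of 0.85 and 0.88. Both probes of miR-1224, of 10 and 11 bases, were also highest in kidney 4 and lowest in kidney 1, as were both of miR-3473. Both probes of miR-6215 were highest in kidney 4 and lowest in kidney 5. In each of these miRNAs the longer probe is the shorter probe plus 1 base. Both probes thus read nearly the same stretch of the same sample, and their agreement is not independent support for the differences.

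**Figure D4:**
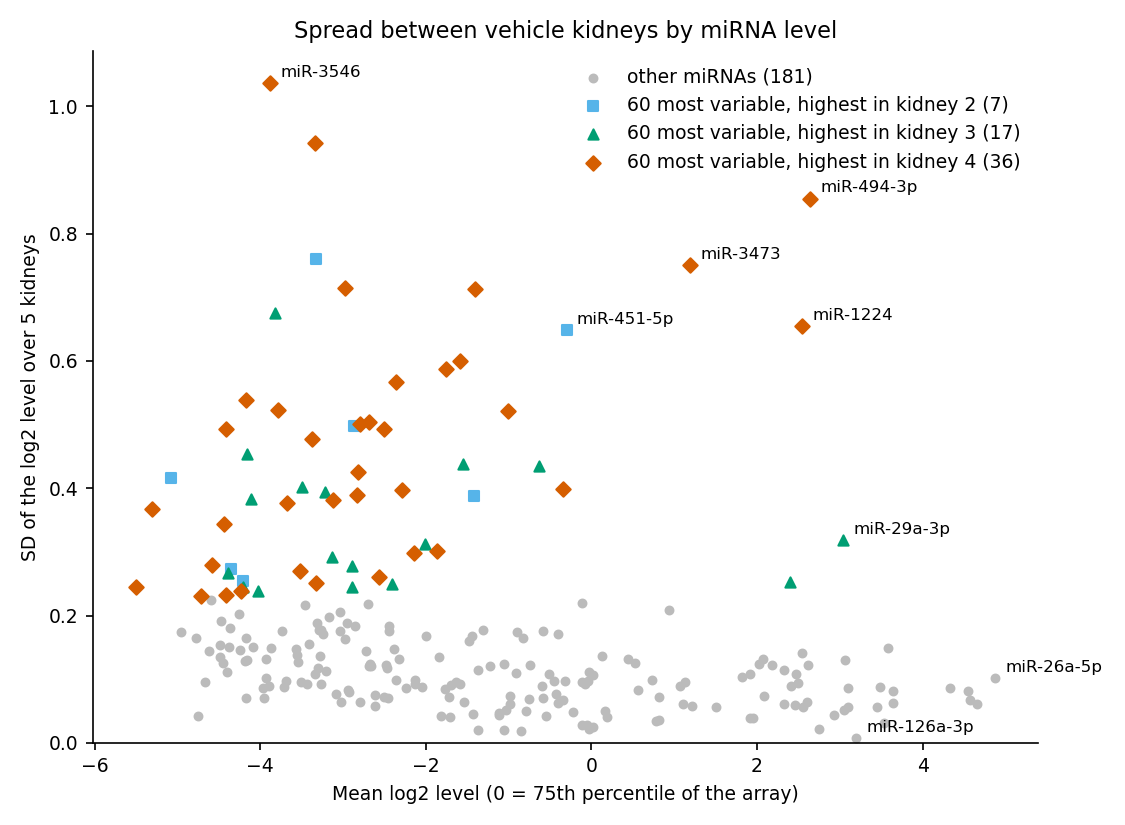
SD of the log2 level over the 5 vehicle kidneys (y axis) against the mean log2 level (x axis, 0 is the 75th percentile of the array) for the 241 miRNAs detected in all 5, with the 60 most variable marked by the kidney in which they were highest. Of the 60, 36 were highest in kidney 4, 17 in kidney 3 and 7 in kidney 2, and miR-494-3p, miR-1224 and miR-3473 stand apart from miRNAs of like level. Of all 241, 82 were highest in kidney 4, 50 in kidney 3 and 31 in kidney 2.

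Of the 60 most variable miRNAs, 36 were highest in kidney 4, 17 in kidney 3 and 7 in kidney 2, and none (0) in kidney 1 or 5. Kidney 1 was lowest for 32 of the 60. Of all 241, kidneys 4, 3 and 2 were highest for 82, 50 and 31, and kidney 1 was lowest for 93. The 60 were picked by their spread, so their counts describe that choice. With normexp background correction, 20 of the 60 most variable were highest in kidney 4 and 27 in kidney 1. Scaling to the median gave 23 in kidney 4 and 18 in kidney 1. The deposited table gave 23 and 7, and no scaling between arrays gave 27 and 0. With the scanning software's own total gene signal, the 10 most variable miRNAs shared 0 with the 10 named here. With that signal miR-494-3p had an SD of 0.89 and was highest in kidney 4, but ranked 19 by SD, against 3 in the main setting. The 36 highest in kidney 4 in the main setting had a median GC content of 59.1% and a median probe length of 13.5 bases. The detected miRNAs outside the 60 had 45.5% and 17.5 bases. The 36 were also dimmer, with a median log2 level of -2.90 against -1.36, so sequence and level are mixed in this comparison. The 17 highest in kidney 3 had 40.9% and 18.5 bases, at a median log2 level of -3.13. They include miR-29a, miR-29b, miR-141, miR-200c, miR-31a-5p, both arms of miR-9a and miR-375-3p. miR-451-5p was highest in kidney 2 and lowest in kidney 3. Kidney 4 had neither the highest nor the lowest summed signal, and the fewest spots flagged as outliers (447, against 457 to 531). The 75th percentile used for scaling was 300, 339, 432, 328 and 347 units in kidneys 1 to 5. The median of the same miRNAs was 64.9, 82.5, 106, 96.6 and 81.3 units. Which kidney is highest thus depends in part on the scaling chosen. RNA integrity values of the single kidneys are not given in the sources used here. The part of RNA quality, probe and labelling in these differences was not tested.

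Kidneys 1 and 5 had no miRNA (0 of 241) more than 2-fold apart, and kidneys 4 and 5 had 20. Kidney 1 had 2, 13 and 17 against kidneys 2, 3 and 4. Kidney 2 had 7, 11 and 1 against kidneys 3, 4 and 5. Kidney 3 had 1 and 4 against kidneys 4 and 5. The median absolute log2 difference ran from 0.0937 between kidneys 4 and 5 to 0.191 between kidneys 1 and 3. Kidney 5 was alone on its slide, so slide and kidney cannot be told apart. Without kidney 5, 35 of the 60 most variable miRNAs were highest in kidney 4 and the SD of miR-494-3p was 0.93. Without kidney 4 the SD of miR-494-3p was 0.68 and kidney 3 was highest for 40 of the 60.

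**Figure D5:**
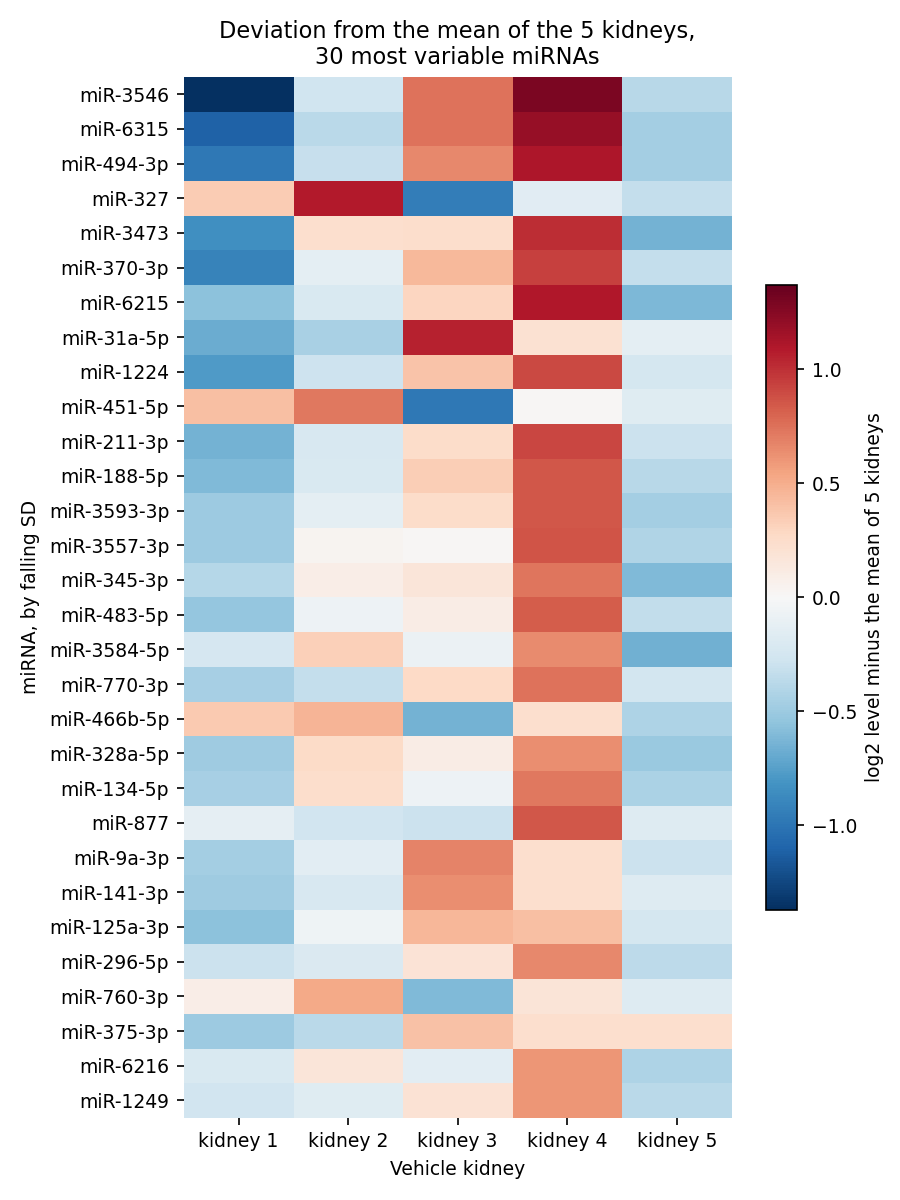
Log2 level of each vehicle kidney (columns) minus the mean of the 5 kidneys, as colour (red above, blue below), for the 30 most variable miRNAs (rows, by falling SD). Most rows are reddest in kidney 4 and blue in kidneys 1 and 5, and the rows of miR-327, miR-451-5p, miR-466b-5p and miR-760-3p are bluest in kidney 3.

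The first base was not used to choose the brightest miRNAs. Of the 20 brightest, 16 (80.0%) began with U, and the other 4 with A. The 20 include several members each of the let-7, miR-26, miR-30 and miR-23 families, whose sequences are alike, so they are not independent. Among the 214 detected in all kidneys with a sequence, 47.2% began with U, against 29.6% of the 382 with a sequence that were detected in none. The median GC content was 43.5% in the 20 brightest, 47.7% in the detected and 47.5% in the undetected miRNAs.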

How the data were processed

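The deposited scanner files of the 5 vehicle arrays were read, 1 for each kidney. The values are fluorescence intensity in arbitrary units, from which the scanning software (Feature Extraction 10.7.1.1 of Agilent, per the file headers) had subtracted background, and they were not scaled between arrays. The deposited detection, outlier and saturation flags are 0 or 1. Each array had 14380 spots of 1730 probes for 719 rat miRNAs, 5 to 20 spots per probe. Outlier spots were left out unless all spots of a probe were flagged. Probe means were summed per miRNA. Shares used the total over the miRNAs detected on that array, and log2 levels used the 75th percentile over the 241 detected on all 5. The number of arrays limits the precision. With 1 group, no test was made, and scripts were tested on simulated data.

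The deposited series table, used as an alternative, holds log2 values for 740 entries. Its column medians for kidneys 1 to 5 were -3.19, -3.09, -3.17, -3.15 and -3.16, each the lowest value of its column. Over the 241 miRNAs the columns correlated with the log2 signal at 0.986 to 0.987, so they run the same way, and their highest value was 17.4 in each. How they were scaled and centred is not given in the sources used here.

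Families shared bases 2 to 8. Named miRNAs are the 20 brightest, the 10 most and 10 least variable, the 10 most balanced and 10 brightest arm pairs, pairs with a brighter 3p arm among the 100 brightest miRNAs, and members of 13 marker lists. miRNAs outside that rule were named after their values were seen. Members and lists were chosen with earlier results of these data known. miR-155-5p, miR-486 and miR-219a-5p, on the lists, are not analysed here. Alternatives were other probe summaries, normexp background correction (limma 3.58.1, R 4.3.3, offset 50), other scalings, detection rules, seed lengths, the deposited table and leaving out each kidney. Tables were handled with pandas 2.3.3 and numpy 2.4.6 in Python 3.11.15.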

Additional observations from a re-analysis of the deposited data

Results flagged for a closer look

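Of 100 values examined over the 5 kidneys for 1 kidney far from the others, 2 stood out, where chance alone gives about 1 in 20. The log2 level of miR-196a-5p was -0.16 in kidney 2, against -0.10 in the nearest other kidney, although this miRNA is among the 10 least variable. The log2 level of miR-199a-5p was -0.70 in kidney 1, against -0.50 in the nearest other kidney. No kidney gave both values.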

How the results depend on the processing

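The miRNA with the highest share (miR-26a-5p) and the let-7 family as the brightest family were the same under each alternative run. Normexp background correction lowered the share of the 10 brightest to 33.7%, of the let-7 family to 20.4% and of the 5 brightest families to 42.1%, and the scanning software's own total gene signal lowered them to 32.6%, 18.1% and 38.0%. With that signal 15 of the 20 brightest were shared, against 18 to 20 under the other settings, and 6 arm pairs had at least 90% on 1 arm. Counting arms detected on at least 1 array gave 26 such pairs of 55, in place of 13 of 37. Requiring all probes well above background left 159 miRNAs on all 5 arrays. The median SD of the log2 level was 0.102 with normexp, 0.164 with the deposited table, 0.169 with the software's signal, 0.178 with scaling to the median and 0.229 with no scaling. The cause of these shifts was not tested. Leaving out each kidney in turn gave 242 to 245 miRNAs, 40.5 to 41.1% for the 10 brightest, 24.2 to 24.7% for let-7, 49.96 to 50.7% for the 5 brightest families, 13 to 15 arm pairs and a median SD of 0.111 to 0.133. miR-494-3p, miR-1224 and miR-3473 were highest in kidney 4 under each setting that kept it. With the software's signal, however, they ranked 19, 30 and 28 by SD, against 3, 9 and 5 in the main setting. The 10 most variable miRNAs with that signal shared 0 with those named above. With normexp, 20 of the 60 most variable were highest in kidney 4 and 27 in kidney 1. miRNAs near the detection limit, with signals close to background, are the least certain. No paired analysis was possible because there was 1 group and no test.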

Other observations

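The chromosome 6 region around miR-494, extended in steps of up to 50 kb, spans chr6:134388218-134429970 in rn4, within the imprinted Dlk1-Dio3 region, and carries 73 miRNAs. Of these, 65 were detected in no kidney and 5 in all, against 59.7% and 33.5% of all miRNAs on the array. miR-409a-3p (0.0222% ± 0.0017), miR-487b-3p (0.0212% ± 0.0026), miR-134-5p (0.0110% ± 0.0037) and miR-667-3p (0.0106% ± 0.0026) held 0.0651% ± 0.0071 together, against 1.59% ± 0.88 for miR-494-3p. The 50 kb step leaves out miRNAs at lower positions of chromosome 6 that were also detected in all kidneys. Among them were miR-770-3p (0.0335% ± 0.011), miR-370-3p (0.0310% ± 0.014) and miR-341 (0.0227% ± 0.0031). Like miR-494-3p, miR-370-3p was highest in kidney 4 and lowest in kidney 1. By chromosome, the share detected in all kidneys ran from 0.0% of the 4 miRNAs on chromosome 16 and 9.09% of the 11 on chromosome 14 to 58.3% of the 12 on chromosome 9 and 3 of the 5 on chromosome 20, against 33.5% of all miRNAs on the array. Chromosomes 6 and X, which carry the most, had 14.4% of 118 and 26.6% of 109, and chromosomes 2 and 4 had 29.0% each.

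Among miRNAs detected in some kidneys, the epithelial miR-205 was detected in kidneys 3 and 5 only, with signals of -0.301, 1.08, 17.4, 0.938 and 12.0 units. Apart from 1 end base, the target of both probes of miR-352 lies within let-7d-5p, and miR-352 held 0.110% ± 0.0057, against 1.86% for let-7d. How far the arrays separate them was not tested.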
